A study of Homo sapiens with 14 samples.

Results

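The data described here are bulk RNA-seq libraries of foregut cells in which LTR5 elements were targeted by CRISPR interference, set against foregut cells without that targeting. The members were chosen by their titles: 2 libraries with the LTR5 sgRNA and 2 controls, 4 of the 12 bulk libraries and of the 14 samples of the series. Of 63677 gene IDs in the count tables, 20044 held at least 3 reads in 1 of the 4 libraries and were tested, and 9033 of these were well covered, with a mean of at least 10 CPM (a gene's reads scaled to the same library size) in 1 of the 2 arms. Most of the text is about those 9033 genes. The series follows primate-specific transposable elements through human gastrulation and organ formation, in embryonic stem cells (hESC), in endoderm and foregut made from them, and in gastruloids.

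The cells derived from H9, an established hESC line. Per the methods, CRISPRi cells were transduced with a lentiviral vector that carries dCAS9-KRAB, a Cas9 that binds DNA without cutting it, fused to a domain that recruits silencing proteins. They were selected with puromycin, and whether as a pool or a clone is not given in the sources used here. The treated arm is described as carrying an sgRNA designed on the consensus of LTR5B. The labels give the endoderm controls as cells with dCAS9-KRAB and no sgRNA, and do not say what the foregut controls carried. Differentiation took 3 days to endoderm, with 100 ng/ml Activin A and the WNT agonist CHIR-99021 at 5 µM on the first day and 0.5 µM on the second, and then 3 days in a commercial pancreatic kit to reach the foregut stage. The labels conflict: the titles of the 4 libraries say foregut, control or CRISPRi, while the status fields call the controls hESC and the CRISPRi libraries endoderm-derived cells without an sgRNA. Groups follow the titles. The foregut marker list (18 genes such as FOXA2 and HHEX) summed to 1050 to 1410 CPM in the 4 libraries and to 84.8 to 102 CPM in the 2 hESC libraries. In endoderm it summed to 907 to 936 CPM in controls and 779 to 1080 CPM with the sgRNA, which overlaps the foregut sgRNA libraries. The pluripotency list (15 genes) summed to 823 to 1120 CPM against 4040 to 5120 CPM in hESC, and secreted liver proteins (22 genes) to 3310 to 5390 CPM against 179 to 202 CPM in hESC and 258 to 355 CPM in endoderm. On these markers the 4 libraries differed from hESC, including the 2 whose status field reads hESC.

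LTR5_Hs, LTR5B and LTR5A are the long terminal repeats of HERV-K, one of the youngest endogenous retroviruses of the human genome. A long terminal repeat holds the promoter and enhancer of its retrovirus, and one that landed near a gene can act on that gene's transcription. KRAB brings TRIM28 and histone methyltransferases to a locus, and the repressive mark they lay down can spread over nearby sequence. Foregut endoderm is the part of the gut tube that gives rise to the liver, pancreas, stomach and airways, and is patterned by transcription factors such as FOXA2, GATA4, HHEX and PDX1.

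The 4 libraries held 20811663 to 37152434 gene reads. The smallest was replicate 2 of the sgRNA arm, and the other 8 bulk libraries held 11583063 to 23539769. Mitochondrial genes took 29.0% and 17.6% of the reads in the controls and 34.7% and 22.4% with the sgRNA, so replicate 1 was the higher in both arms. Between 253 and 300 genes per foregut library had exactly 1 read, against 1507 to 2239 in the other 8 libraries. The methods call the replicates of RNA-seq biologically independent, and the labels only number them.

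The targeted elements themselves gave few reads that map to 1 place. LTR5B summed to 13.2 and 8.85 CPM in the controls and to 6.46 and 3.89 CPM with the sgRNA. Both sgRNA libraries were below both controls, but the log2 fold change of -1.09 (SE 0.64) did not pass the test (unadjusted p = 0.0874, edgeR's quasi-likelihood test). LTR5_Hs summed to 9.64 and 8.34 CPM against 5.11 and 9.87 CPM, with overlapping groups and a log2 fold change of -0.27 (SE 0.63). The older LTR5A stood at 57.8 and 54.9 CPM against 68.7 and 57.2 CPM, and HERVK-int, the internal part of the provirus, at 58.0 and 54.1 CPM against 65.2 and 58.6 CPM. Neither passed the test. Reads from young, near-identical copies cannot be placed uniquely and are missing from these sums.

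Across all genes the sgRNA arm differed from the control in few. A gene is called where its Benjamini-Hochberg adjusted p is below 0.05 and the arms differ more than 2-fold. Of all 20044 genes tested, 33 were called (0.165%), 10 of them higher and 23 lower. Among the well-covered genes 30 were called (0.332%), 8 higher (0.0886%) and 22 lower (0.244%). The median log2 fold change of all well-covered genes was -0.04, with 4847 of the 9033 below 0 and 4179 above. The 2 arms did not overlap in 2703 well-covered genes (29.9%), 1201 higher (13.3%) and 1502 lower (16.6%). At an unadjusted p under 0.05 stood 4.75% of the well-covered genes. The calls lean on a fit that found no gene-wise spread beyond the trend with expression. Where a gene had to hold at least 10 reads in total in at least 2 libraries, the fit did find such spread and 1 gene was called, BAAT, although 32 of the 33 still had an unadjusted p under 0.05.

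Some genes next to LTR5_Hs or LTR5B fell with the sgRNA. Of 129 well-covered genes whose start lay within 10 kb of 1 of the 1033 annotated elements of these subfamilies, 9 were called lower and none higher. That is 6.98%, against 0.244% of all well-covered genes called lower. At an unadjusted p under 0.05, 23 of the 129 were lower (17.8%, against 2.92% of all well-covered genes) and none was higher (against 1.83%). In 45 of them both sgRNA libraries lay below both controls (34.9%, against 16.6% of all well-covered genes), in 8 both lay above (against 13.3%), and 98 had a log2 fold change below 0. With at least 10 reads in total none of the 129 was called, and 19 were lower and none higher at an unadjusted p under 0.05. The median of the 129 was -0.26. From 10 to 100 kb, 3 of 769 genes were called lower and 1 higher, with a median of -0.08. From 100 to 500 kb it was 2 lower and 2 higher of 2123 with a median of -0.05, and beyond 500 kb 8 lower and 4 higher of 5937 (0.135% lower) with a median of -0.02.

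**Figure D1:**
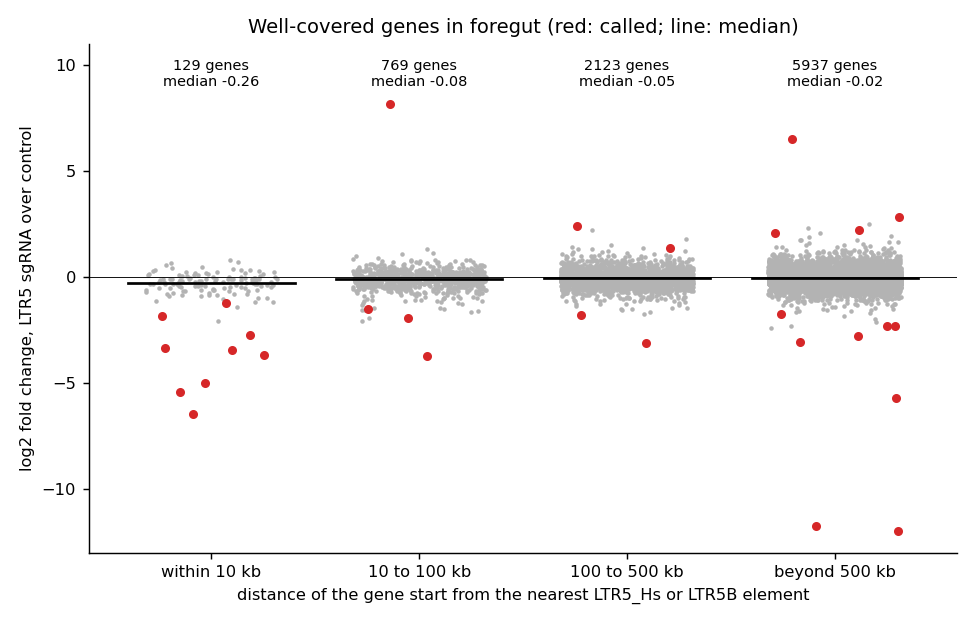
Log2 fold change in foregut (LTR5 sgRNA over control, y axis) of each well-covered gene, in 4 classes of distance from the gene start to the nearest LTR5_Hs or LTR5B element (x axis). Red points are called genes and black lines medians. All 9 called genes within 10 kb lie below 0, and the median rises from -0.26 within 10 kb to -0.02 beyond 500 kb.

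The distance classes were chosen while the data were analysed. Split by subfamily, 6 of 88 genes within 10 kb of LTR5_Hs were called lower, with a median of -0.33, and 4 of 45 genes within 10 kb of LTR5B, with a median of -0.09. Of genes near other subfamilies, none of 10 near LTR5A was called (median 0.00), none of 22 near MER11B (median -0.10) and none of 33 near MER11C (median -0.16). Of 49 genes near MER11A, 1 was called, higher (median -0.08). The medians near MER11A, MER11B and MER11C were as low as or close to that near LTR5B. In endoderm, where 3 libraries with the sgRNA were compared with 3 controls, 128 genes within 10 kb of LTR5_Hs or LTR5B were tested, and 11 lower and 2 higher ones had an unadjusted p under 0.05 (over all well-covered genes 2.53% lower and 1.31% higher, 3.84% together), with a median of -0.08.

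The 9 genes differ in function and in level. GSTA2, a glutathione transferase of liver and gut that detoxifies reactive compounds, was at 30.9 and 20.1 CPM in the controls and at 0.508 and 0.0437 CPM with the sgRNA. Its LTR5_Hs lies inside the gene, 0.677 kb downstream of the start on chromosome 6 and in no exon. The log2 fold change was -6.46 (SE 0.66, adjusted p = 6.26e-19, edgeR's quasi-likelihood test). GSTA1, its neighbour and close relative 41.1 kb from an LTR5 element, stood at 139 and 118 CPM against 44.4 and 45.7 CPM and was also called lower (log2 fold change -1.51, SE 0.35). In both genes the arms did not overlap. Reads of such near-identical copies may be shared or dropped in counting, so the split between them is uncertain.

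RTL8C and RTL8B are genes that were domesticated from a retrotransposon and lie on either side of a single LTR5_Hs on chromosome X. RTL8C, which starts 1.05 kb from it, was at 147 and 167 CPM in the controls and at 19.8 and 11.58 CPM with the sgRNA (log2 fold change -3.32, SE 0.37). RTL8B, which starts 7.80 kb from it, was at 28.2 and 32.6 CPM against 11.61 and 5.81 CPM (log2 fold change -1.81, SE 0.45). Both sgRNA libraries were below both controls in each gene, and the nearer gene changed more. These paralogues are also near-identical in parts and their counts are uncertain to that extent.

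DPP7 and TMEM141 lie on the end of the long arm of chromosome 9, each with its own LTR5B. DPP7, a dipeptidase of cellular vesicles, was at 39.0 and 93.6 CPM in the controls and at 8.09 and 4.28 CPM with the sgRNA (log2 fold change -3.42, SE 0.42), with the element inside the gene 1.08 kb downstream of its start. TMEM141, a small transmembrane protein, was at 36.0 and 58.6 CPM against 2.25 and 0.655 CPM (log2 fold change -5.01, SE 0.50), with the element 1.57 kb upstream. The control libraries differed from each other by more in DPP7 than in TMEM141, and in neither did the arms overlap. PRDX6, a peroxidase that reduces lipid peroxides, was the most highly expressed of the 9, at 669 and 630 CPM against 253 and 312 CPM, and fell the least (log2 fold change -1.21, SE 0.30), with an LTR5B 1.92 kb upstream. PRODH, the mitochondrial enzyme that starts proline breakdown, was at 10.5 and 19.03 CPM against 4.13 and 0.350 CPM (log2 fold change -2.71, SE 0.62), with an LTR5_Hs provirus 2.12 kb upstream.

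CST1, a secreted cysteine protease inhibitor, was at 25.8 and 34.4 CPM in the controls and at 1.38 and 0 CPM with the sgRNA (log2 fold change -5.40, SE 0.58), with an LTR5_Hs provirus 4.60 kb upstream. ITLN2, a lectin of the gut, was at 17.7 and 15.2 CPM against 2.54 and 0 CPM (log2 fold change -3.67, SE 0.64), and its start lies 5.02 kb from an LTR5_Hs that sits within the gene and overlaps an exon. In both genes replicate 2 of the sgRNA arm, the shallowest library, held no read. The cystatin genes are a family of similar sequence, which leaves the CST1 count uncertain.

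Of the 9 genes, 8 were expressed enough to be tested in endoderm, and each had a log2 fold change below 0 there too. CST1 (-2.85, adjusted p = 0.0340) and PRODH (-2.31, adjusted p = 0.0373) passed edgeR's test in endoderm. RTL8C (-1.26), DPP7 (-1.67), TMEM141 (-1.01), ITLN2 (-1.28), RTL8B (-0.43) and PRDX6 (-0.19) did not. The fall was larger in foregut than in endoderm for TMEM141 and RTL8C by the test of that difference. GSTA2 was near 0 in endoderm (0.0694 CPM in controls). Of the 9 genes in foregut, voom called RTL8C, DPP7 and PRDX6, and DESeq2 called these and GSTA2 and TMEM141. GSTA2, RTL8C, DPP7, TMEM141 and CST1 were called in foregut whichever library was left out. ITLN2 lost its call without control replicate 1, PRODH and RTL8B without either control or sgRNA replicate 2, and PRDX6, like GSTA1, without any 1 of the 4 libraries.

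A further 14 genes within 10 kb had lower levels and an unadjusted p under 0.05 but were not called. PVR, a cell adhesion receptor, came nearest, at 18.3 and 19.7 CPM against 4.28 and 4.72 CPM (log2 fold change -2.08, SE 0.53, adjusted p = 0.0521, edgeR), with an LTR5B 3.76 kb upstream. PRDX4, a peroxidase of the endoplasmic reticulum, was at 120 and 143 CPM against 53.5 and 78.6 CPM, and ASRGL1, an asparaginase, at 32.2 and 37.8 CPM against 16.2 and 15.1 CPM. The others were ZNF83, CKB, RAB15, HDHD3, CD320, AP1S1, LINC00665, RMND1, SLC3A2, CPSF4 and SERPINB9, with log2 fold changes from -0.72 (SLC3A2) to -1.39 (ZNF83). The arms overlapped in CD320 and SERPINB9 and in none of the other 12.

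BAAT rose the most of the well-covered genes that did not overlap between the arms. BAAT joins bile acids to glycine or taurine in hepatocytes, the last step before they are secreted. It was at 1.04 and 1.05 CPM in the controls and at 101 and 93.2 CPM with the sgRNA. The replicates of each arm were close to each other and the arms lay far apart (log2 fold change 6.52, SE 0.47, adjusted p = 5.39e-39, edgeR's quasi-likelihood test). BAAT was the only gene called under all 14 alternatives. Its mean in hESC was 0.168 CPM, and in endoderm it stood at 0 CPM in controls and at 0.0220 CPM with the sgRNA. Its start, on the minus strand of chromosome 9, lies inside a MER11A element, 4150 kb from the nearest LTR5_Hs or LTR5B (GRCh37).

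The other genes with a MER11 element that the study names moved less. DYSF, a membrane repair protein, was at 16.2 and 17.8 CPM in the controls and at 42.3 and 22.6 CPM with the sgRNA (log2 fold change 0.93, SE 0.41, unadjusted p = 0.0256). IQCG, a protein of cilia and flagella, was at 20.8 and 16.7 CPM against 38.8 and 32.9 CPM (log2 fold change 0.93, SE 0.41, unadjusted p = 0.0223). Both sgRNA libraries were above both controls in each, and neither passed edgeR's test after adjustment. Of the other bile acid genes that were well covered, ACOX2, a side chain oxidase, was at 6.46 and 15.1 CPM against 24.6 and 16.9 CPM, and CYP27A1, a sterol hydroxylase, at 16.1 and 31.6 CPM against 14.5 and 12.8 CPM. Neither was called, and the 2 pointed in opposite directions. DYSF, IQCG and BAAT were chosen by the study on these samples, so their rise is not independent evidence.

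Of 11 well-covered secreted liver proteins 2 were called lower (against 0.244% of all well-covered genes), and 5 had an unadjusted p under 0.05, all lower (against 2.92%). The arms did not overlap in 6, all lower (against 16.6%). The median log2 fold change was -0.62 against -0.04 for all well-covered genes. AFP, the fetal serum albumin, was at 187 and 4.82 CPM in the controls and at 0.0363 and 0 CPM with the sgRNA (log2 fold change -11.97, SE 0.70). The controls themselves differed widely, and without control replicate 1 the gene was not called. FGB, a fibrinogen chain, was at 88.8 and 17.4 CPM against 5.66 and 7.25 CPM (log2 fold change -3.05, SE 0.43), again with control replicate 1 far above replicate 2 and with no call without it. SERPINA1, the plasma protease inhibitor, was at 46.4 and 23.9 CPM against 6.75 and 19.1 CPM and did not pass (adjusted p = 0.208). TTR, a thyroid hormone carrier and the most abundant member, was at 1540 and 1954 CPM against 1989 and 1495 CPM with overlapping arms, and the summed level of the list overlapped as well (3840 and 5390 against 4640 and 3310 CPM). In bulk RNA, fewer cells of a type and less RNA per cell cannot be told apart.

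The transcription factors PDX1 and CDX2 were called lower. PDX1, which specifies pancreas and duodenum, was at 27.0 and 24.7 CPM in the controls and at 2.79 and 7.73 CPM with the sgRNA (adjusted p = 0.00219 by edgeR, for a log2 fold change of -2.30 with an SE of 0.49). CDX2, which specifies the intestine, was at 24.5 and 12.3 CPM against 1.67 and 3.76 CPM (log2 fold change -2.77, SE 0.57, adjusted p = 0.000993). In neither gene did the arms overlap, but PDX1 lost its call when either control or sgRNA replicate 1 was left out, and CDX2 when control replicate 1 was. The other well-covered pancreas genes were not called: RFX6 was lower and SOX9 and MNX1 higher, with log2 fold changes of -0.56, 0.53 and 0.35. SLC26A3, a chloride exchanger of the intestinal brush border, was at 24.8 and 3.93 CPM in the controls and had no read in either sgRNA library. The control mean of 14.4 CPM is 119.9-fold the level of 3 reads per library, taken as the floor. That mean rests mostly on control replicate 1, and SLC26A3 was not called without that library.

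Of the 11 well-covered genes of the foregut list none was called, 3 had an unadjusted p under 0.05, all lower, and 9 were below 0, with a median of -0.31. GATA4, needed for liver and pancreas buds, was at 224 and 196 CPM against 82.2 and 123 CPM (log2 fold change -1.04, SE 0.32, adjusted p = 0.358). HHEX, needed for the liver bud, was at 43.7 and 23.0 CPM against 11.24 and 18.9 CPM. FOXA2, which opens chromatin in all endoderm, was at 477 and 376.5 CPM against 451 and 431 CPM, with overlapping arms and a log2 fold change of 0.04. The definitive endoderm list had no call among 8 genes and a median of -0.24, and there SOX17 was at 23.4 and 24.7 CPM against 8.27 and 21.1 CPM.

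Of the genes called higher, 4 code for matrix proteins or a receptor of mesenchymal cells, and they are named for the size of their rise. BGN, a small matrix proteoglycan, was at 117 and 240 CPM in the controls and at 1143 and 547 CPM with the sgRNA (log2 fold change 2.24, SE 0.31). FMOD, which binds collagen fibrils, was at 4.87 and 4.23 CPM against 49.6 and 16.3 CPM (log2 fold change 2.85, SE 0.47). HAPLN1, which links hyaluronan to proteoglycans, was at 27.0 and 34.2 CPM against 121 and 139 CPM (log2 fold change 2.09, SE 0.36). PDGFRB, the growth factor receptor of pericytes, was at 3.83 and 2.51 CPM against 20.7 and 12.9 CPM (log2 fold change 2.40, SE 0.57). In these 4 genes both sgRNA libraries lay above both controls, and PDGFRB was not called without either control. The mesenchyme list had 1 called gene of 7, BGN (0.0886% of all well-covered genes were called higher). In it 3 members were below 0, and the median was 0.24. FMOD, HAPLN1 and PDGFRB are in no list. COL1A1, the main fibrillar collagen, was at 246 and 234 CPM against 364 and 304 CPM and did not pass, and TAGLN, an actin-binding protein of smooth muscle, overlapped between the arms. Of the 16 listed genes 2 had no read in any of the 4 libraries. The summed level of the list was 1110 and 1680 CPM in the controls and 2300 and 1910 CPM with the sgRNA, and its part in the results above was not tested.

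Endothelium and blood genes did not move as 1 group. HBE1, the embryonic beta-type globin, was at 17.2 and 13.0 CPM against 0.544 and 0 CPM and was called lower (log2 fold change -5.72, SE 0.77), while the other 4 well-covered members lay above their control libraries. TIE1, an endothelial receptor, was at 24.3 and 35.9 CPM against 73.0 and 38.1 CPM (unadjusted p = 0.0191), and KDR, the main VEGF receptor, at 22.02 and 35.4 CPM against 52.5 and 42.9 CPM. Neither was called. HBE1 belongs to a cluster of similar globin genes, and its count is uncertain to that extent.

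The remaining lineage lists had no called member. Among mesoderm genes TCF15, a factor of somites, was at 2.66 and 1.87 CPM against 10.8 and 10.6 CPM (log2 fold change 2.23, SE 0.68, adjusted p = 0.308), while PDGFRA and OSR1 had log2 fold changes of -0.46 and -0.44. Pluripotency genes had a median of -0.01 over 7 well-covered members. USP44, a deubiquitinase of stem cells, was at 8.90 and 8.36 CPM against 16.3 and 22.1 CPM, and LIN28A, the most abundant, at 801.5 and 577 CPM against 831 and 692 CPM with overlapping arms. The anterior HOX genes HOXB1 and HOXB2 had log2 fold changes of 0.11 and -0.01, and neural genes (NES, MAP2, DCX) of 0.04 to 0.18. In the anterior foregut list SOX2 was at 191 and 142 CPM against 157 and 224 CPM, with overlapping arms. Trophoblast and amnion genes (IGFBP3, KRT7, GATA3) had values from -0.53 to 0.50.

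**Figure D2:**
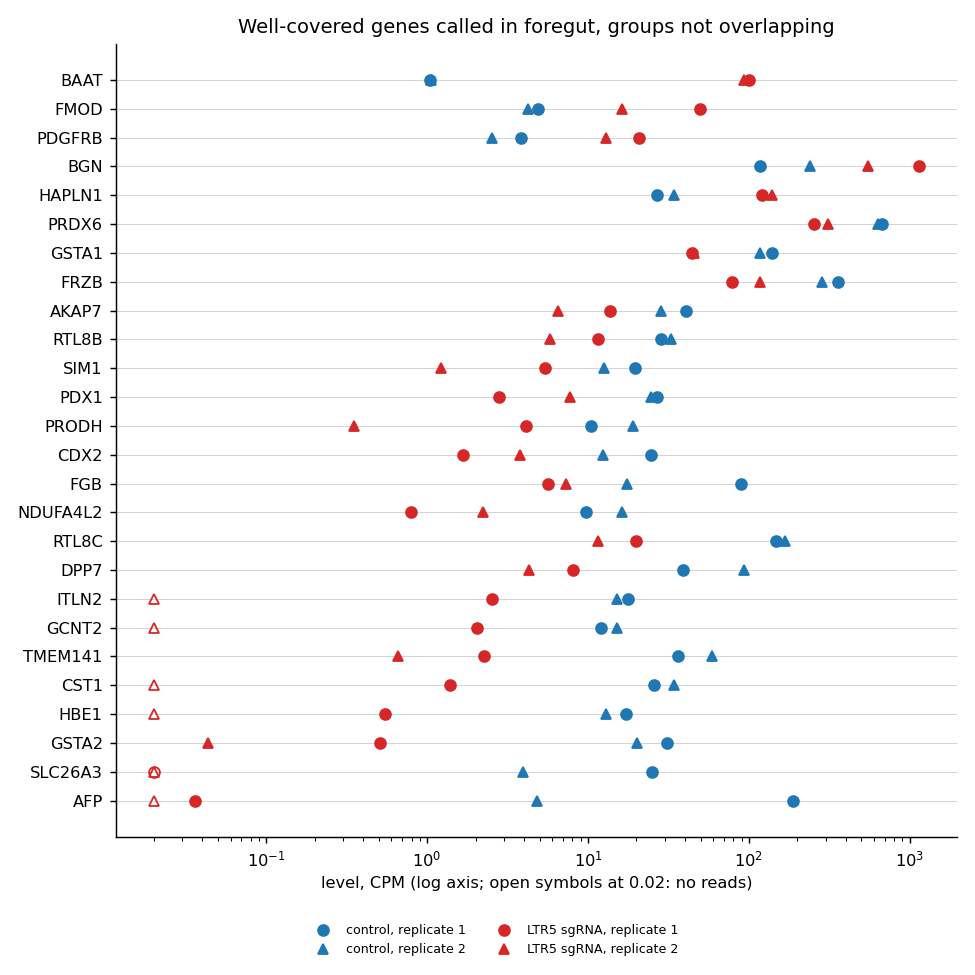
Level in CPM (log axis) in each of the 4 foregut libraries for the 26 well-covered called genes with a symbol whose arms do not overlap, ordered by log2 fold change. Blue is control and red LTR5 sgRNA, circles replicate 1 and triangles replicate 2, and open symbols have no reads. BAAT shows the least spread within each arm beside its distance between arms, and AFP the most spread within the controls.

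The other called genes belonged to none of these groups and, with GSTA1, RTL8B and PRDX6, were picked for mention after their values were seen or by the size of their change. NDUFA4L2, a hypoxia-induced mitochondrial protein, was at 9.77 and 16.2 CPM in the controls and at 0.798 and 2.23 CPM with the sgRNA (log2 fold change -3.11, SE 0.67). GCNT2, the I-branching enzyme of blood group antigens, was at 12.1 and 15.1 CPM against 2.03 and 0 CPM (log2 fold change -3.72, SE 0.69). Its start lies 91.7 kb from an LTR5B that sits inside the gene. AKAP7, an anchor of protein kinase A, was at 40.7 and 28.3 CPM against 13.7 and 6.47 CPM, and SIM1, a transcription factor of the hypothalamus and kidney, at 19.4 and 12.7 CPM against 5.37 and 1.22 CPM. In all 4 the arms did not overlap, but each lost its call without either control, and AKAP7 and SIM1 also without sgRNA replicate 2. In 3 called genes they did: LGALS3 (103 and 29.7 CPM against 4.21 and 30.8), SLC25A6 (0 and 0.0769 CPM against 27.0 and 0) and AC079949.1 (13.4 and 92.1 CPM against 273 and 6.07), where the 2 libraries of an arm differed widely. SLC25A6 had 743 reads in sgRNA replicate 1 and 0 to 3 in each other foregut library. Its mean was 0 CPM in endoderm with or without the sgRNA and 0.0627 CPM in hESC. Only reads that map to 1 place were counted, so these values do not show whether SLC25A6 was silent in those libraries. Without sgRNA replicate 1 SLC25A6 and LGALS3 were not called, and without control replicate 1 neither LGALS3 nor AC079949.1. The gene ID ENSG00000184779, which has no symbol here, was at 23.8 and 10.9 CPM against 45.9 and 116 CPM and was called higher, though not without replicate 2 of either arm.

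Signalling pathways held 1 called gene. FRZB, a secreted WNT antagonist, was at 358 and 283.5 CPM in the controls and at 78.5 and 116.5 CPM with the sgRNA, with no overlap. Its log2 fold change was -1.72 (SE 0.32, adjusted p = 7.92e-05, edgeR), and it lost its call without control replicate 1. Among the other 11 well-covered WNT genes SFRP2, another antagonist, was at 4.38 and 7.54 CPM against 18.1 and 12.3 CPM (unadjusted p = 0.0121) and FZD5, a receptor, at 179.5 and 113 CPM against 91.8 and 81.0 CPM (unadjusted p = 0.0215). The list had 2 genes higher and 2 lower at an unadjusted p under 0.05 and a median of -0.11. BMP genes had none in either direction over 13 genes (median -0.29), Notch none over 12 (median -0.19), and Nodal and TGF-beta 1 lower of 14, FOXH1, the SMAD partner of Nodal (11.04 and 18.2 CPM against 8.05 and 5.46). Among Hedgehog genes the ligand IHH was at 13.6 and 18.2 CPM against 7.76 and 7.996 CPM and the effector GLI3 at 13.8 and 17.5 CPM against 24.0 and 36.7 CPM, both at an unadjusted p under 0.05. FGF had 1 higher of 11, the feedback inhibitor SPRY2 (11.63 and 13.6 CPM against 20.8 and 25.9), and retinoic acid 1 lower of 12, the degrading enzyme CYP26A1 (264 and 261 CPM against 149 and 184).

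The epithelium and basement membrane lists had medians below the -0.04 of all well-covered genes, and no call. OCLN, a tight junction protein, was at 21.1 and 24.1 CPM against 7.43 and 6.47 CPM (log2 fold change -1.71, SE 0.48, adjusted p = 0.16, edgeR). CDH6, a cadherin, was at 526 and 398 CPM against 129 and 310 CPM, and CLDN4, a claudin, at 152 and 200.3 CPM against 96.5 and 112 CPM. The epithelium list had 3 lower and none higher of 15 at an unadjusted p under 0.05 (against 2.92% lower of all well-covered genes). In it 13 were below 0 (4847 of 9033 over all well-covered genes), with a median of -0.16. Its summed level overlapped between the arms (18200 and 23100 against 21300 and 16900 CPM). So did its most abundant member, the keratin KRT8 (6494 and 10830 against 10110 and 5780 CPM). The basement membrane list also had 3 lower of 16 (against 2.92% of all well-covered genes), with a median of -0.19. Its summed level was 4470 and 4920 CPM in the controls against 3040 and 3620 CPM. The 3 were FN1, or fibronectin, at 1939 and 1473 CPM against 516 and 1312 CPM, COL4A6 at 53.03 and 51.7 CPM against 15.2 and 34.1 CPM, and COL18A1, whose arms overlapped. In FN1, COL4A6 and CDH6 replicate 1 was the lower of the 2 sgRNA libraries.

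Metabolic lists differed in direction and had no call. In glycolysis LDHA, lactate dehydrogenase, was at 661 and 592 CPM against 1223 and 1308 CPM (log2 fold change 1.01, SE 0.28, adjusted p = 0.151, edgeR), while the median of the 19 genes was 0.06. Among hypoxia genes PDK1, which shunts pyruvate away from mitochondria, was at 11.9 and 16.7 CPM against 30.2 and 40.0 CPM (log2 fold change 1.29, adjusted p = 0.441), and NDRG1, a stress response gene, at 24.0 and 19.3 CPM against 14.3 and 5.90 CPM. Cholesterol synthesis was below 0 in 17 of 18 genes (4847 of 9033 over all well-covered genes), with a median of -0.28. In this list 2 were lower at an unadjusted p under 0.05 (against 2.92% of all well-covered genes). There NSDHL, a sterol dehydrogenase, was at 33.97 and 48.97 CPM against 22.6 and 17.1 CPM and DHCR7, the last enzyme of the route, at 32.7 and 49.3 CPM against 29.8 and 18.4 CPM. The 13 respiratory chain genes of the mitochondrial genome had a median of 0.33 and the 22 nuclear ones -0.15, and in none of the 13 were the arms apart. No metallothionein was well covered.

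Stress and growth lists had medians on both sides of that of all genes and no call. The p53 targets were below 0 in 11 of 13 genes (4847 of 9033 over all well-covered genes), with a median of -0.48. GDF15, a stress cytokine, was at 38.4 and 37.8 CPM against 21.4 and 14.2 CPM (unadjusted p = 0.00665), and CDKN1A, which stops the cell cycle, at 10.4 and 26.6 CPM against 10.4 and 6.38 CPM with overlapping arms. The unfolded protein response had a median of -0.14, with ASNS, asparagine synthetase, as its 1 gene lower at an unadjusted p under 0.05. Early response genes had a median of 0.14, with EGR1 at 22.4 and 27.1 CPM against 39.4 and 55.8 CPM. DNA replication, mitosis, and interferon response had no gene at an unadjusted p under 0.05, with medians of -0.10, -0.09 and 0.19, and heat shock had 1, HSPE1, with a median of -0.06. The KRAB silencing machinery had none of 15 and a median of 0.03, with TRIM28 at 507 and 787 CPM against 693 and 449 CPM. MHC class I genes had none of 8, and class II had HLA-DPB1 (41.5 and 39.0 CPM against 24.5 and 17.0) and HLA-DQB1 (12.1 and 9.39 CPM against 5.15 and 3.85) lower at an unadjusted p under 0.05.

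**Figure D3:**
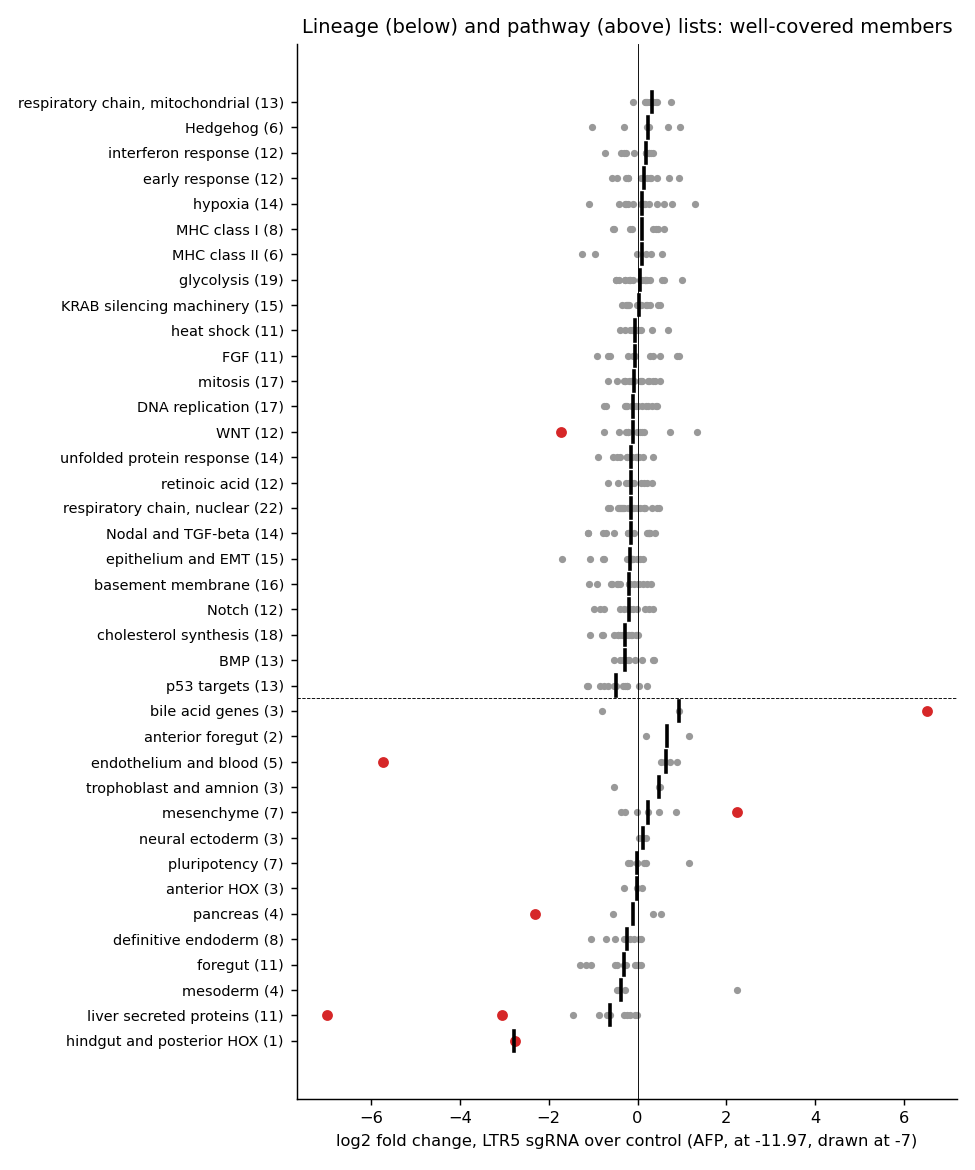
Log2 fold change in foregut (LTR5 sgRNA over control, x axis) of the well-covered members of each lineage list, below the dashed line, and each pathway list, above it, with the number of members in brackets. Black bars are medians and red points called genes. Of 14 lineage lists that of secreted liver proteins has 2 called genes, and the lowest median among lists of more than 1 gene at -0.62.

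Of the 41 lists fixed for lineages, pathways and the study's genes, 8 held a called gene among their well-covered members. Over all well-covered genes 0.332% were called. The KRAB zinc finger genes that the study names lie in a cluster on chromosome 19 and were too low in foregut to be well covered. ZNF611 was at 1.85 and 0.924 CPM in the controls and had no read with the sgRNA, ZNF600 was at 4.16 and 4.21 CPM against 0 and 2.45 CPM, and ZNF28 at 7.21 and 6.13 CPM against 2.50 and 3.06 CPM. ZNF808 was at 0.909 and 1.13 CPM against 0.0363 and 0 CPM, ZNF468 at 4.38 and 2.90 CPM against 3.26 and 2.88 CPM, and ZNF320 at 2.82 and 1.31 CPM against 3.48 and 3.06 CPM. Both sgRNA libraries lay below both controls in ZNF611, ZNF600, ZNF28 and ZNF808, and above both in ZNF320. Over well-covered genes the shares were 16.6% and 13.3%, but those genes are more highly expressed than these 6 and are not a matched background. None of the 6 was called. Of the 40 genes of the cluster 9 were well covered, 3 of them lower at an unadjusted p under 0.05, with a median of -0.31. The study named ZNF611, ZNF600, ZNF28, ZNF468 and ZNF320 for their fall with LTR5 CRISPRi during endodermal differentiation and their higher level in endoderm. It named ZNF808, with ZNF468, for binding at the MER11A promoter of BAAT.

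By the share of genes more than 2-fold apart, the libraries of each arm were farther apart than 3 of the 4 pairs across the arms. Between the controls 7.76% of well-covered genes (701) were more than 2-fold apart, and between the sgRNA libraries 10.9% (987). Pairs across the arms ranged from 5.87% (530 genes) to 14.3% (1292 genes), and those 3 other than the highest were closer than the controls were to each other. Pearson's r of log2(CPM + 1) across genes, which are not independent, was 0.932 within the controls, 0.912 within the sgRNA arm and 0.926, 0.934, 0.939 and 0.891 across arms, so that by r the controls were closer than 2 of these pairs. Control replicate 2 and sgRNA replicate 2 were the farthest apart, and the same control and sgRNA replicate 1 the closest. The arm means differed by more than 2-fold in 206 well-covered genes. Means of 2 libraries vary less than single libraries, so this count cannot be set against those of the pairs.

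**Figure D4:**
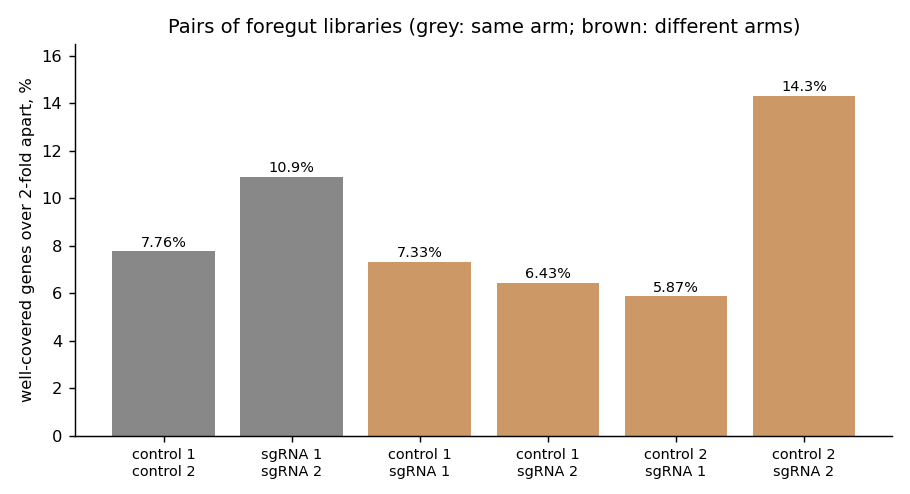
Percent of the 9033 well-covered genes that differ more than 2-fold (y axis, after adding 1 CPM) between each pair of foregut libraries (x axis). Grey bars are pairs of 1 arm and brown bars pairs across arms. The lowest bar, 5.87%, and the highest, 14.3%, are both pairs across arms.

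Among transposable elements, reads summed over all copies of a subfamily gave 1 call in 1025 (0.0976%). LTR25-int, the internal part of an old retrovirus, was at 24.5 and 11.59 CPM in the controls and at 1.67 and 1.66 CPM with the sgRNA. Its log2 fold change was -3.44 (SE 0.65, adjusted p = 0.000124, edgeR). A single copy on chromosome 2 (70016590 to 70020103) that overlaps an exon held 84.3% of its control reads, and without exon-overlapping copies the subfamily was not called. MER11A was at 21.2 and 12.2 CPM against 5.29 and 2.88 CPM (log2 fold change -2.03, SE 0.59, adjusted p = 0.224). Here a copy on chromosome 22 (23889088 to 23890083), which overlaps an exon and abuts an LTR5B provirus, had 410 and 314 reads in the controls and none with the sgRNA, 64.2% of the control reads. The rest of MER11A stood at 7.89 and 4.13 CPM against 5.30 and 2.88 CPM, with overlapping arms. MER11B, MER11C and HERVK11-int, of the same family of proviruses, had log2 fold changes of 0.05, -0.02 and 0.58.

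**Figure D5:**
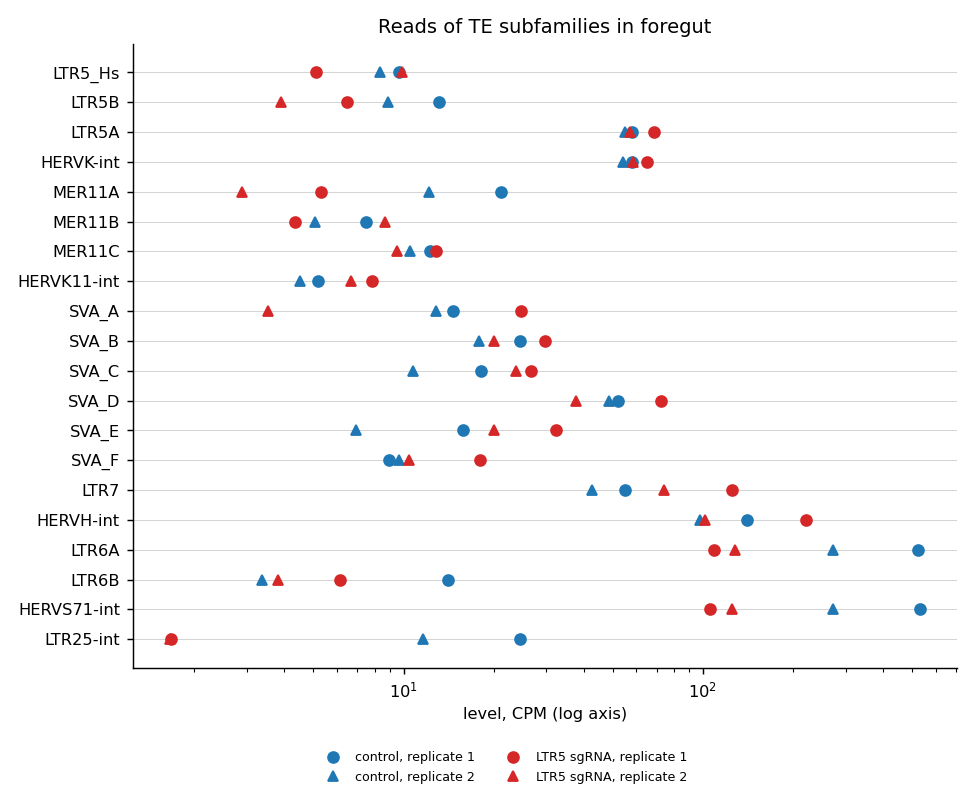
Level in CPM (log axis) in each foregut library of 19 chosen TE subfamilies and LTR25-int, from reads that map to 1 place. Blue is control and red LTR5 sgRNA, circles replicate 1 and triangles replicate 2. LTR5B, MER11A, LTR6A, HERVS71-int and LTR25-int lie lower with the sgRNA in both libraries, and LTR7, HERVK11-int, SVA_C, SVA_E and SVA_F higher.

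SVA elements, which carry LTR5-derived sequence at their end, did not pass as subfamilies. SVA_E was at 15.8 and 6.95 CPM against 32.3 and 20.01 CPM (unadjusted p = 0.0197), and SVA_A at 14.6 and 12.8 CPM against 24.7 and 3.54 CPM, where the sgRNA libraries disagreed. LTR7, the promoter of HERVH, was at 54.7 and 42.7 CPM against 125 and 74.0 CPM (unadjusted p = 0.0405). Single copies outside exons gave 3 calls in 50453 (0.00595%). A HERVS71-int/LTR6A copy on chromosome 18 (47931542 to 47935100) fell from 498 and 262 CPM to 89.3 and 109 CPM, and held 94.8% of the control reads of HERVS71-int. A HERVH-int/LTR7 copy on chromosome 17 (74602070 to 74607593) had no read in the controls and 113 and 176 reads with the sgRNA, and an L1MC4 copy on chromosome 7 (121131103 to 121131406) was at 29.7 and 15.5 CPM against 73.2 and 64.4 CPM. The test gave the chromosome 18 copy a log2 fold change of -1.95 with an SE of 0.066, which is narrower than the gap between its 2 controls. None of the 3 is an LTR5 element.

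Of the 33 called genes 24 were tested in endoderm, and 12 of these had an unadjusted p under 0.05 there in the same direction (3.84% of all well-covered genes had such a p in either direction). In endoderm 7 of 20407 genes were called (0.0343%). The test of the difference between the tissues, over the 10 foregut and endoderm libraries, called 44 of 22708 genes (0.194%), 12 with a higher and 32 with a lower sgRNA effect in foregut. Of the 33 genes called in foregut 4 were among them. BAAT, AFP, FGB, GSTA2, PDX1 and HBE1 had too few reads in endoderm to be tested there.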

How the data were processed

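RNA of the 4 foregut libraries was poly(A)-selected and sequenced with a stranded kit. Per the methods, reads were mapped to hg19 with HISAT2 and featureCounts gave the uniquely mapped reads of genes and of merged repeat fragments; whether strand was used in counting is not given in the sources used here. The authors deposited raw counts per gene and per TE copy, with no normalization. The members, gene lists and tests were chosen with earlier results of these data known, and the distance classes during the analysis. The test on these counts was that of edgeR 4.0.16 (quasi-likelihood, TMM, 2-sided, Benjamini-Hochberg over all genes tested) in the 4 libraries, for genes with at least 3 reads in 1 of them. Calls needed an adjusted p below 0.05 and, for genes and TE copies, more than 2-fold. Each SE is the size of the log2 fold change over the square root of the test's F statistic, not a spread measured between libraries. DESeq2 1.42.0, voom (limma 3.58.1), other filters and leaving out each library were alternatives. CPM were scaled by TMM over the 12 bulk libraries. For TE copies, library sizes and factors of the genes were used, and copies over exons were left out. Named were the 15 largest rises and the 15 largest falls among called, well-covered genes with a symbol and no overlap (5 rose), up to 3 well-covered members with the smallest p and the most abundant one of each list, and genes the study names. Some of these items are not reported here. Distances run from the gene start in the GENCODE annotation of GRCh37 to the nearest TE copy. Reads carry no molecular identifiers, so floors cover counting error only. The script was tested on simulated data.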

Additional observations from a re-analysis of the deposited data

Results flagged for a closer look

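The test of the difference between the sgRNA effects in foregut and in endoderm (edgeR's quasi-likelihood test, Benjamini-Hochberg adjusted) passed for 4 of the genes called in foregut. TMEM141 fell by more in foregut, with a difference of -4.00 on the log2 scale (SE 0.57, adjusted p = 0.0277). Its log2 fold change was -5.01 in foregut and -1.01 in endoderm, where the means were 25.1 CPM in controls and 12.2 CPM with the sgRNA. RTL8C also fell by more in foregut, with a difference of -2.07 (SE 0.36, adjusted p = 0.0377), from -3.32 in foregut and -1.26 in endoderm. BGN rose in foregut and had a log2 fold change of -0.43 in endoderm, a difference of 2.66 (SE 0.48, adjusted p = 0.0412). SLC38A4, an amino acid transporter that was not well covered, had no read in the foregut controls. With the sgRNA it was at 3.81 and 4.54 CPM, and the mean of these is 47.9-fold the level of 3 reads per library. Its difference was 10.84 (SE 1.98, adjusted p = 0.0499), a fitted value that depends on the prior count. None of the 4 passed with the replicate number as a block, with at least 10 reads in total, or without either foregut control. RTL8C was also lost without sgRNA replicate 2, and BGN with voom.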

How the results depend on the processing

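Against 33 genes called in foregut, voom called 11, a fit on well-covered genes alone 12, a fit of all 12 libraries 209 and an unadjusted p 504. With at least 10 reads in total 1 gene (BAAT), 0 TE copies, 0 tissue differences and 0 genes near LTR5 were called. The labels do not pair the replicate numbers, and replicates of the same number deviated in opposite directions (r = -0.364 across well-covered genes). The replicate block gave 19 genes, 16 TE subfamilies and 0 tissue differences, and the crossed pairing, added after seeing the data, gave 74 genes. Leaving out 1 library gave 16 to 527 genes (16 without control replicate 1, 527 without sgRNA replicate 1, 74 without sgRNA replicate 2), 0 to 61 TE subfamilies, 2 to 12 TE copies, 0 to 805 tissue differences and 5 to 9 genes near LTR5. TE subfamilies called were 2 with voom, 4 with DESeq2, 5 with TE library sizes, 0 without exon-overlapping copies, 0 with single-name copies and 36 at an unadjusted p. TE copies called were 391 with voom and 224 at an unadjusted p. Tissue differences were 229 with DESeq2 and 1682 at an unadjusted p. Of the 9 genes near LTR5 called lower, voom kept a count of 3, DESeq2 5 and the fit on well-covered genes 5. Counts over the 129 well-covered genes within 10 kb used an unadjusted p under 0.05. The gene alternatives that left out no library gave 15 to 34 lower and 0 to 1 higher. The causes were not tested.

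Some uncalled values near 0 changed sign. HOXB2 and TTR were at 0.01 with DESeq2, RLE factors or well-covered genes alone, and CALR at 0.01 to 0.02. With TE library sizes LTR5A was at -0.34, HERVK-int -0.35, MER11B -0.35, SVA_A -0.52, SVA_B -0.24, SVA_D -0.39 and HERVH-int -0.05. MER11B was at -0.02 with voom and -0.01 with the replicate block, and SVA_A at -0.48 and -0.52. With single-name copies LTR6A was at 1.20 and HERVS71-int at 1.62. Leaving out 1 library gave these ranges of log2 fold change.
They were HOXB1 -0.31 to 0.44, HOXB2 -0.46 to 0.34, SOX2 -0.09 to 0.43, FOXA2 -0.12 to 0.23, TTR -0.22 to 0.18, TAGLN -0.73 to 0.25, DCX -0.04 to 0.45, MAP2 -0.04 to 0.33 and NES -0.11 to 0.21. For the next genes or subfamilies they were LIN28A -0.08 to 0.40, GATA3 -1.51 to 0.05, BMPR1A -0.29 to 0.82, ID1 -0.71 to 0.18, CDC6 -0.31 to 0.93, MCM3 -0.14 to 0.31, TRIM28 -0.52 to 0.17, HLA-E -0.96 to 0.07 and HLA-C -0.53 to 0.43. For the next genes or subfamilies they were RFNG -1.55 to 0.92, COL18A1 -1.05 to 0.10, JUN -0.02 to 0.78, KRT8 -0.58 to 0.29, GAPDH -0.04 to 0.37, HSP90AA1 -0.34 to 0.05, ISG15 -0.97 to 0.38 and IFITM3 -0.17 to 0.59. For the next genes or subfamilies they were PLK1 -1.46 to 0.71, TPX2 -0.07 to 0.19, MT-CO1 -0.07 to 0.92, MT-ND5 -0.53 to 1.34, CRABP1 -0.14 to 0.69, CALR -0.06 to 0.05, ZNF468 -0.52 to 0.09, LTR5_Hs -0.82 to 0.14 and MER11B -0.53 to 0.47. For the next genes or subfamilies they were MER11C -0.25 to 0.18, SVA_A -1.95 to 0.85, SVA_B -0.07 to 0.49, SVA_D -0.41 to 0.52, HERVH-int -0.22 to 0.89 and LTR6B -1.51 to 0.56.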

Other observations

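On chromosome 22, ZDHHC8BP, a transcribed pseudogene too low to be well covered, was at 7.501 and 6.98 CPM in the controls and at 0.580 and 0 CPM with the sgRNA. By edgeR's quasi-likelihood test the log2 fold change was -4.59 (SE 1.07) with an adjusted p = 0.0125. Its start lies 134 kb from the nearest LTR5 element. An LTR5B fragment that abuts the MER11A copy named above (23888493 to 23889087) had 8 and 9 reads in the controls and 17 and 0 with the sgRNA. The longer LTR5B provirus next to the nearest element (23879927 to 23888195) had 169 and 47 reads in the controls and 36 and 0 with the sgRNA. In CPM the arms of this provirus overlapped (5.49 and 1.21 against 1.31 and 0). In endoderm the same provirus had 38, 47 and 43 reads in controls and 1, 14 and 4 reads with the sgRNA. The MER11A copy beside it had 13, 20 and 10 reads in endoderm controls and 0, 3 and 1 with the sgRNA, so it was lower with the sgRNA in both tissues. The mitochondrial transfer RNA MT-TQ, which was not well covered, was called higher in foregut. It was at 0 and 0.539 CPM in the controls and 7.33 and 7.47 CPM with the sgRNA. MT-TQ was called under 7 of the 12 alternatives that tested it. The call was lost with voom, with the replicate block, in the fit of all 12 libraries and without control replicate 1, among others.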
